A study of Mus musculus with 12 samples.

Results

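The 9 genes described here encode transcription factors of inhibitory interneurons: Dlx1, Dlx2, Dlx5, Dlx6, Lhx6, Sp9, Maf, Prox1 and Sox6. They were chosen by name, with earlier results of these data known, and every assembled gene model that carries one of these symbols was taken. All 9 were found in each of the 3 deposited tables, as 11 models of 30995 where knockdown was set against wild type, 11 of 31041 where rescue was set against knockdown and 9 of 31042 where rescue was set against wild type. Every one of these models was tested by Cuffdiff, the authors' program for differential expression.

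The libraries were made from polyadenylated RNA of 12 frontal cortices, each from a male mouse, all F1 hybrids of C57Bl/6 and 129/SvlmJ aged 14 weeks, with 4 animals in each group. By genotype label the groups are WT, GluN1 and GluN1Cre; from the title of the series, the names wild type, knockdown and rescue are used here. Tamoxifen was given to all groups for 2 weeks, beginning at an age of 10 weeks, with a gavage dose of 6 mg and a further 14 mg or so taken in with the chow, so the wild-type and knockdown animals were exposed to the drug as well. The allele that lowers Grin1 and the promoter that drives Cre are not given in the sources used here, and by the labels no group carried Cre without the knockdown genotype, so effects of Cre itself and of restored Grin1 cannot be told apart. Grin1, which encodes the obligatory GluN1 subunit of NMDA receptors, lay at 138 FPKM in wild type, at 56.7 to 65.7 FPKM in the knockdown and at 78.0 to 86.7 FPKM in the rescue, over the tables. The tables hold 1 FPKM value per group (mapped fragments set relative to transcript length and sequencing depth) and no value per animal. Depth and the spread between animals are therefore unknown. All 6 cortical projection neuron markers checked, among them Slc17a7 and Camk2a, were detected in every group, at summed levels of 2287 to 2526 FPKM. A model is called changed where the authors' p is under 0.05 and their q under 0.10, the threshold in the series' design text. By Cuffdiff 0 of the 6 were called in any comparison, with 2 lower at an unadjusted p under 0.05 in knockdown against wild type and 0 in the others. All 6 log2 folds were negative in knockdown against wild type (median -0.14) and all 6 positive in rescue against knockdown (median 0.08). In rescue against wild type 5 were negative and 1 positive (median -0.06). In whole tissue, a change in the number of cells and a change in RNA per cell cannot be told apart.

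Inhibitory interneurons of the cortex are born in the ganglionic eminences of the embryonic forebrain and migrate into the cortex. The DLX homeodomain proteins act early in this lineage and drive genes of GABA synthesis and of migration; DLX1 and DLX2 come before DLX5 and DLX6. SP9 works beside them. LHX6 and then SOX6 and MAF direct interneurons of the medial eminence, the source of the parvalbumin and somatostatin cells, while PROX1 acts in those of the caudal eminence, the source of the vasoactive intestinal peptide and many reelin cells. The Dlx genes, Sp8 and Sp9 are also expressed by the interneurons of the olfactory bulb and by the neuroblasts that supply them.

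The 4 Dlx genes lie in 2 pairs. GENCODE M21 (GRCm38) places Dlx1 on the plus strand of chromosome 2 from 71528113 to 71533981 and Dlx2 on the minus strand from 71543408 to 71546754, 9426 bases apart. Dlx6 lies on the plus strand of chromosome 6 from 6863334 to 6868568 and Dlx5 on the minus strand from 6877805 to 6882085, 9236 bases apart. Both pairs therefore converge on a short shared intergenic stretch. An antisense gene covers all 5869 bases of Dlx1 (Dlx1as) and another all 5235 bases of Dlx6 (Dlx6os1, also known as Evf2, which the tables call Dlx6as1). Sp9 lies on the same chromosome as the first pair, from 73271925 to 73284706. Lhx6 lies from 36081953 to 36105408 on chromosome 2, 10.8 megabases from Grin1, and Dlx1, Dlx2 and Sp9 lie 46.2 to 48.0 megabases from it. Prox1 is on chromosome 1, Sox6 on chromosome 7 and Maf on chromosome 8. All 9 are protein-coding genes.

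The Dlx genes are paralogs, and whether their reads can be told apart depends on how alike their transcripts are. The most alike coding block of the 4 genes, 180 bases that cover most of the homeobox, is printed for this reason from the GENCODE M21 transcripts. Capitals mark the bases identical in all 4 genes.
Dlx1: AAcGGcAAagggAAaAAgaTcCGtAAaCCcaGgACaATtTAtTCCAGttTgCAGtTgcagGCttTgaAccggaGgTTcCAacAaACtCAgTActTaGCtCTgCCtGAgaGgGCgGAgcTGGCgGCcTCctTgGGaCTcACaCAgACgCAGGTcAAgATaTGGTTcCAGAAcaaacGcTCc
Dlx2: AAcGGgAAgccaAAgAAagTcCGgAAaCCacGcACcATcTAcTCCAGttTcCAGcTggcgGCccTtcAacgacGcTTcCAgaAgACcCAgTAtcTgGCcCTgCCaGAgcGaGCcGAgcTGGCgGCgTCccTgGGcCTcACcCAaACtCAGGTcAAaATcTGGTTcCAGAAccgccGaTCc
Dlx5: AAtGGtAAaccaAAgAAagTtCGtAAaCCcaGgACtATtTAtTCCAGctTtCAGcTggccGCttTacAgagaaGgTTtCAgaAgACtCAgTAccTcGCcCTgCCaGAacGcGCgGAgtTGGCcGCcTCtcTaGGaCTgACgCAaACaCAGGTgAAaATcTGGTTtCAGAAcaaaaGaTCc
Dlx6: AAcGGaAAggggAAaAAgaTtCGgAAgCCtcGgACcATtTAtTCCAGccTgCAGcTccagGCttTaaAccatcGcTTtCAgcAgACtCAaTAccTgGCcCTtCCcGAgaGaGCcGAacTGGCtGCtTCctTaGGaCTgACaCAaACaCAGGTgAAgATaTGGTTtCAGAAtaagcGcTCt
Of the 180 bases, 105 were identical in all 4 genes. The most alike pairs were Dlx1 with Dlx6 (140 bases) and Dlx2 with Dlx5 (137 bases), which sit on different chromosomes, while the neighbours Dlx1 with Dlx2 and Dlx5 with Dlx6 shared 129 and 130. Over the whole transcripts the longest identical run between any 2 of these genes was 23 bases, between Dlx2 and Dlx6. Reads longer than that run differ between the genes; the read length is not given in the sources used here.

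In the knockdown cortex Dlx1, Dlx2, Dlx5 and Sp9 rose over wild type, each to about the same degree (log2 folds of 0.58 to 0.62). Dlx6 and the factors of later interneuron subtypes did not pass the test. In the rescue all 4 lay between the knockdown and wild type or at the wild-type level, and Dlx2 alone passed the test of rescue against knockdown. Lhx6 was the gene with the lowest fold in the knockdown, and Sox6, Maf and Prox1 had folds near 0 in all 3 comparisons.

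**Figure D1:**
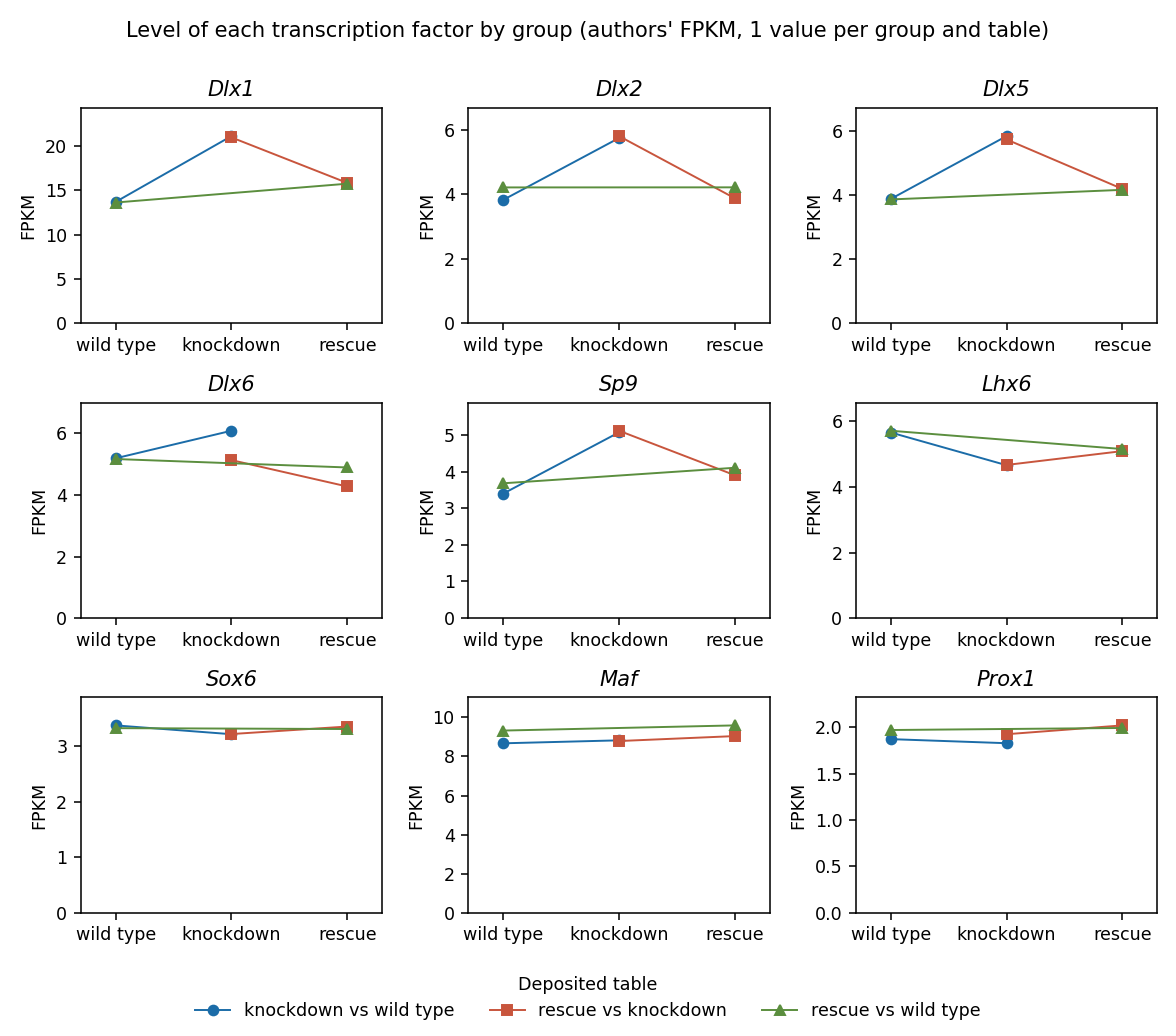
FPKM of the 9 transcription factors (1 panel each, y axis from 0) in the wild-type, knockdown and rescue groups (x axis); each line joins the 2 group values of 1 deposited table, and no animal-level spread is available. Dlx1, Dlx2, Dlx5 and Sp9 peak in the knockdown, whereas Lhx6 is lowest there and Sox6, Maf and Prox1 stay nearly level.

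Of the 11 member models tested in knockdown against wild type, 4 rose, 0 fell and 7 were not called. Among all 18417 tested models 2.52% were called, 1.66% higher and 0.858% lower. The median log2 fold of the member models was 0.23, beside -0.00 for all tested models. That median is the fold of Dlx6, which was not called, and it describes no shift shared by the members. In the same comparison 9 of 11 olfactory bulb marker models rose, in a list chosen with earlier results of these data known. Their part in the Dlx and Sp9 rises was not tested. The 4 rises were in 4 different genes, and 4.75% of all tested models were higher at an unadjusted p under 0.05, where the members again numbered 4. The calls rest on the p-values the authors deposited. With p taken from the deposited test statistic instead, an alternative chosen after seeing the data, 0 of 11 were called, beside 0.223% of all tested models. Then 3 of 11 had an unadjusted p under 0.05, beside 1.25% of all tested models.

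Dlx1, which takes part in the production and the later survival of interneurons, had the highest level of the 9 genes. It lay at 13.7 FPKM in wild type and 21.1 FPKM in the knockdown, a ratio of 1.54 and a log2 fold of 0.62 ± 0.20 (q = 0.0684 in the authors' deposited table). The value after ± is the spread of the log2 fold at which a normal test returns the deposited p; for p at the smallest deposited value of 5e-05 it is an upper limit. Read from the deposited test statistic it is about 2 times wider, since that statistic was 0.498 of the normal deviate of p (median over the models of knockdown against wild type). Dlx1 was the member that lost its call at q under 0.05, where 3 models were called and 1.94% of all tested models. Of the tested models whose mean FPKM reached 1, 0.927% had a log2 fold as high as that of Dlx1.

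Dlx2, the partner of Dlx1 in the same cluster, rose from 3.83 to 5.75 FPKM (log2 fold 0.59 ± 0.15, with q = 0.00833 in the authors' deposited table). Dlx5, which acts after Dlx1 and Dlx2 in the lineage, rose from 3.88 to 5.83 FPKM (log2 fold 0.59 ± 0.16, with q = 0.0172 in the authors' deposited table). Sp9, a zinc finger factor that works with DLX proteins, rose from 3.40 to 5.07 FPKM (log2 fold 0.58 ± 0.14, with q = 0.00456 in the authors' deposited table). The log2 folds of the 4 genes that rose differed among themselves by less than the spread of any of them.

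Dlx6, the neighbour of Dlx5, went from 5.19 to 6.08 FPKM and was not called (log2 fold 0.23 ± 0.61, p = 0.706 in the authors' deposited table). Its spread is the widest among the 9 genes, so its fold cannot be set apart from 0 or from that of Dlx5. The antisense transcript that covers Dlx6, Dlx6as1, is a non-coding RNA that binds DLX proteins and acts on the Dlx5 and Dlx6 enhancers. It rose from 9.60 to 14.8 FPKM (log2 fold 0.63 ± 0.15, with q = 0.00456 in the authors' deposited table). Dlx1as, the antisense gene over Dlx1, went from 8.14 to 9.10 FPKM (log2 fold 0.16 ± 0.18) and was not called, although it overlaps a gene that rose. A further antisense model at Dlx6, Dlx6as2, lay at 0.462 FPKM or less in all groups. Whether the counting used strand is not given in the sources used here, so reads of these overlapping pairs may be split in part.

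A few members carried a further model. Dlx2 and Maf each had a model more in the tables of knockdown against wild type and rescue against knockdown. Models in the tables are numbered in runs along a chromosome, and the first and the second run matched the plus and the minus strand of GENCODE M21 for 95.7% of 20688 single-symbol models in the first of these tables. By that order the further models lie on the strand opposite to their gene. The one at Dlx2 lay at 0.270 FPKM in wild type and 0.466 FPKM in the knockdown (log2 fold 0.79 ± 0.52, not called), and the one at Maf at 5.06 and 4.83 FPKM (log2 fold -0.07 ± 0.35, not called). GENCODE M21 has an antisense gene, Gm15655, that overlaps 2156 bases of Maf. Values given for Dlx2 or Maf by name elsewhere are of the model on the annotated strand, while the counts and medians over 11 models, and the plot of gene lists, include both opposite-strand models.

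Lhx6, the factor that specifies interneurons of the medial eminence, had a fold of the opposite sign to the Dlx genes and was not called. It lay at 5.66 FPKM in wild type and 4.67 FPKM in the knockdown (log2 fold -0.28 ± 0.11; p = 0.0093 and q = 0.242 in the authors' deposited table). Of the tested models whose mean FPKM reached 1, 2.58% had a fold as low. At an unadjusted p under 0.05 Lhx6 was the 1 member model lower in the knockdown, beside the 4 that rose, and 3.17% of all tested models were lower at that threshold. Sox6, which acts after LHX6 and is also expressed by oligodendrocyte precursors, lay at 3.37 and 3.21 FPKM (log2 fold -0.07 ± 0.09). Maf, also expressed by macrophages and microglia, lay at 8.67 and 8.83 FPKM (log2 fold 0.03 ± 0.10). Prox1, the caudal eminence factor, which dentate granule neurons also express, lay at 1.87 and 1.83 FPKM (log2 fold -0.03 ± 0.11). None of these 3 was called, and their folds were smaller than their spreads. The difference between these genes and the Dlx genes was not tested.

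**Figure D2:**
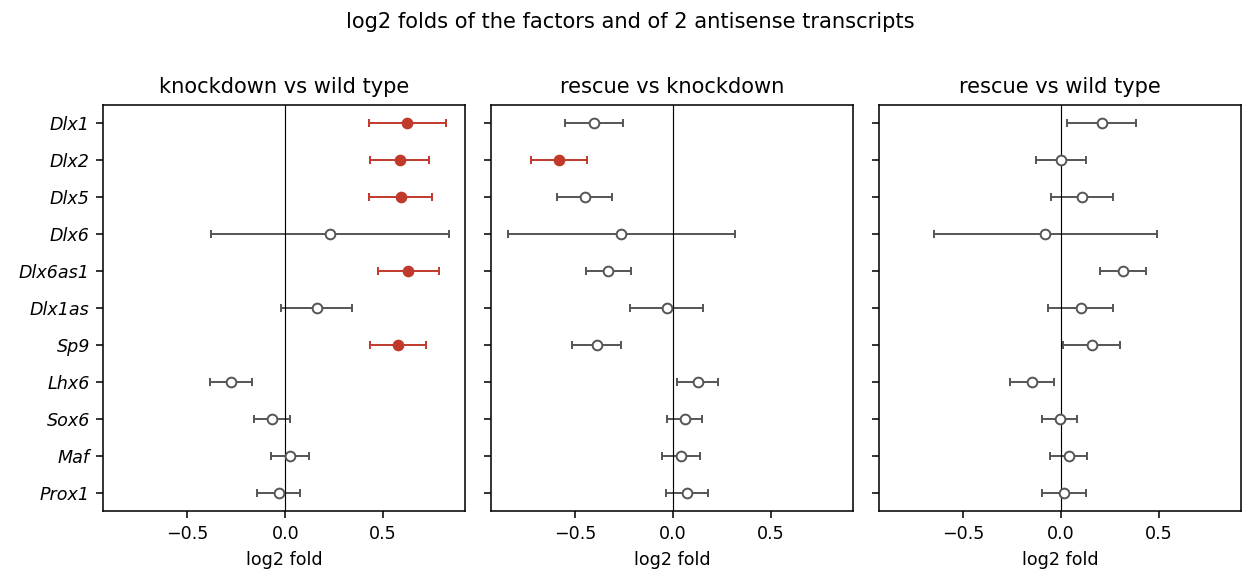
log2 folds (x axis, second group over the reference group named after vs) of the 9 factors and of Dlx6as1 and Dlx1as in the 3 comparisons; points are ratios of the authors' FPKM, bars are the spread implied by the authors' p, and filled red points passed p under 0.05 and q under 0.10. The knockdown panel has filled points near 0.6 for Dlx1, Dlx2, Dlx5, Dlx6as1 and Sp9 and a wide bar for Dlx6.

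Sequence before the start sites is shown for the 3 genes on chromosome 2 whose upstream stretch is in RefSeq's table (GRCm38.p6), with any annotated exon left off: Dlx2 and Sp9, which rose in the knockdown, and Lhx6, which did not. Lhx6 has 3 starts in that table, and the stretch before the outermost is printed. The stretches are chr2:71546755-71547004 for Dlx2 (minus strand), chr2:73271676-73271924 for Sp9 (plus strand) and chr2:36105409-36105658 for Lhx6 (minus strand). Capitals mark the GC box GGGCGG, searched on both strands.
Dlx2: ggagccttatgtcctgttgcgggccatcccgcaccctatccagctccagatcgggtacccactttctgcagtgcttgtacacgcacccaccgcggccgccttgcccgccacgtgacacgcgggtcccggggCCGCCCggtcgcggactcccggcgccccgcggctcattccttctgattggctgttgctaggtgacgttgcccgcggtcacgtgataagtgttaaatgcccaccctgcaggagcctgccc
Sp9: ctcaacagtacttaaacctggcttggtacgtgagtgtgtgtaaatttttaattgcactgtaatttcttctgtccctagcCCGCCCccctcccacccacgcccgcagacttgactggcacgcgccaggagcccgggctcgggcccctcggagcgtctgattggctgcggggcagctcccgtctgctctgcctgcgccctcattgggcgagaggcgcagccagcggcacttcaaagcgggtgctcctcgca
Lhx6: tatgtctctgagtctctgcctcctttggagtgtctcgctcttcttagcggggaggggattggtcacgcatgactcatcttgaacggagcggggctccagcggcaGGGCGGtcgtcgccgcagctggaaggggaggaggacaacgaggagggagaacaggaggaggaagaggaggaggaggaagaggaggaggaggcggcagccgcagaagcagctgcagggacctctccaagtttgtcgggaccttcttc
Each of these stretches held 1 GC box, as 32.7% of all 32851 promoters in the table did in the 250 bases before the start. The homeodomain core TAATTA and the cAMP response element TGACGTCA were in none of the 3, beside 4.84% and 1.55% of all promoters. GC content was 66.4% for Dlx2, 62.4% for Sp9 and 61.6% for Lhx6, beside a median of 52.4% for all promoters. The windows before the other starts of Lhx6 differed: the one at chr2:36104061-36104310 held 0 GC boxes at a GC content of 46.0%, and the third, which overlaps an annotated exon, held 1 at 57.2%. Which of these starts is used in these samples was not tested.

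In the rescue cortex Dlx2 fell relative to the knockdown, and the other Dlx genes and Sp9 had negative folds that were not called. Of 11 member models tested in rescue against knockdown, 0 rose, 1 fell and 10 were not called, beside 0.689% of all 18430 tested models called, 0.13% higher and 0.559% lower. The median log2 fold of the member models was -0.26, beside -0.01 for all tested models. This median too is the fold of Dlx6, which was not called. In the same comparison 8 of 11 olfactory bulb marker models fell, in a list chosen with earlier results of these data known. Their part in the folds of the members was not tested. Dlx2 was the model that fell, from 5.81 to 3.88 FPKM (log2 fold -0.58 ± 0.14, with q = 0.0118 in the authors' deposited table). The call was lost with p from the deposited test statistic, where 0 of 11 models were called, beside 0.0814% of all tested models. Then 1 of 11 had an unadjusted p under 0.05, beside 0.532% of all tested models.

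Dlx1 went from 20.9 to 15.8 FPKM in this comparison (log2 fold -0.40 ± 0.15; p = 0.00585 and q = 0.449 in the authors' deposited table). Dlx5 went from 5.73 to 4.19 FPKM (log2 fold -0.45 ± 0.14; p = 0.0013 and q = 0.163 in the authors' deposited table). Sp9 went from 5.11 to 3.90 FPKM (log2 fold -0.39 ± 0.12; p = 0.0017 and q = 0.197 in the authors' deposited table). Together with Dlx2 they were the 4 members with an unadjusted p under 0.05, all lower in the rescue, and 3.01% of all tested models were lower at that threshold. The count of calls thus depends on the adjustment, with 4 members at that level and 1 past the q threshold.

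Dlx6as1 went from 14.7 to 11.7 FPKM (log2 fold -0.33 ± 0.11, with q = 0.329 in the authors' deposited table) and was not called. Dlx6 went from 5.13 to 4.27 FPKM (log2 fold -0.26 ± 0.58, not called). Dlx1as was assembled together with Metap1d in this table and its fold was -0.03 ± 0.19. Lhx6 lay at 4.67 FPKM in the knockdown and 5.097 FPKM in the rescue (log2 fold 0.12 ± 0.11, not called). Sox6, Maf and Prox1 had log2 folds of 0.06, 0.04 and 0.07 and were not called either.

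Against wild type no member was called in the rescue: Cuffdiff called 0 of 9 models, beside 0.841% of all 18429 tested models (0.364% higher and 0.478% lower). At an unadjusted p under 0.05 the count was also 0, beside 4.32% of all tested models. With p from the deposited test statistic it was 0 too, beside 0.0977% of all tested models, and 0 at an unadjusted p under 0.05, beside 0.624%. The median log2 fold of the member models was 0.02, beside -0.01 for all tested models. Dlx1 lay at 13.6 FPKM in wild type and 15.7 FPKM in the rescue (log2 fold 0.21 ± 0.18). Dlx2 lay at 4.22 FPKM in both groups (log2 fold 0.00 ± 0.13). The locus of its model ended at position 71546754 here, but at 71563850 in the 2 comparisons with the knockdown. The Dlx2 folds of the 3 comparisons thus come from models that were assembled differently. Dlx5 had a log2 fold of 0.11 ± 0.16, Sp9 of 0.16 ± 0.14 and Dlx6 of -0.08 ± 0.57. Dlx6as1 lay at 8.60 FPKM in wild type and 10.7 FPKM in the rescue (log2 fold 0.32 ± 0.12; p = 0.0075 and q = 0.462 in the authors' deposited table) and was not called. Lhx6 had a log2 fold of -0.15 ± 0.11, Sox6 of -0.01 ± 0.09, Maf of 0.04 ± 0.09 and Prox1 of 0.02 ± 0.11. A p above the threshold does not show that rescue and wild type were equal; the folds of Dlx1, Sp9 and Lhx6 exceeded their spreads, that of Lhx6 in the negative direction. Each pair of comparisons shares a group, so the 3 sets of folds are not independent of each other.

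**Figure D3:**
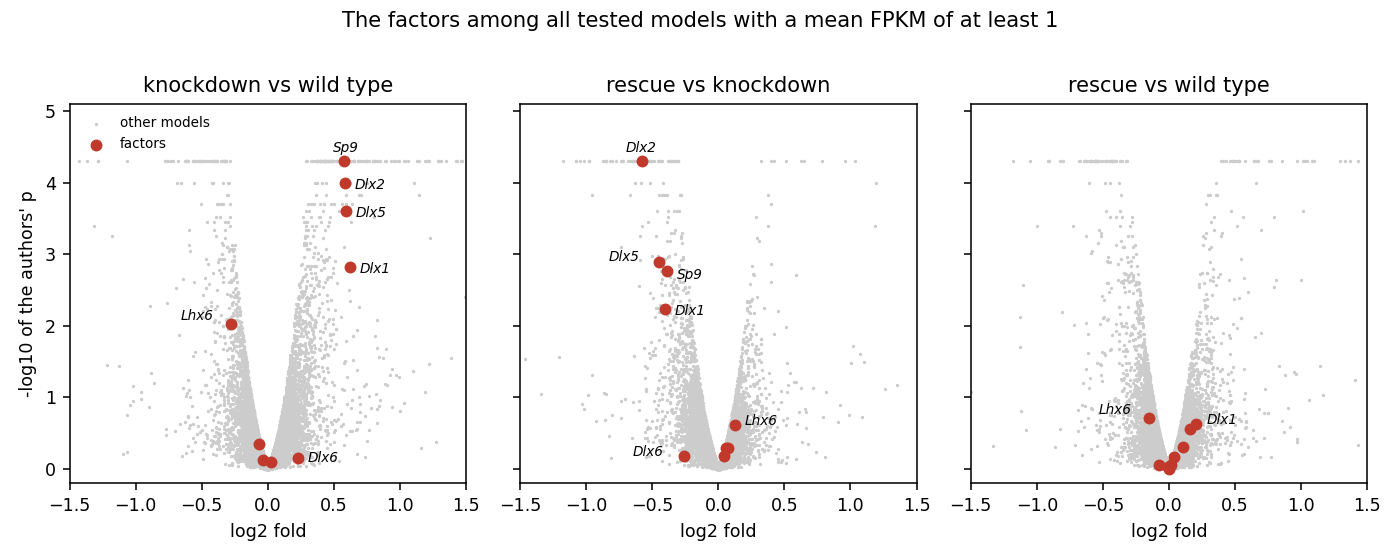
Each tested model whose mean FPKM reached 1 by its log2 fold (x axis) and the −log10 of the authors' p (y axis, largest value set by the smallest deposited p of 5e-05), in the 3 comparisons; red points are the 9 factors on their annotated strand and grey points all other models. Models beyond a log2 fold of 1.5 either way (20, 9 and 14 in panel order) are not drawn; Dlx1, Dlx2, Dlx5 and Sp9 lie to the upper right in the knockdown panel and to the upper left in the rescue against knockdown panel.

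The levels themselves, which FPKM sets per transcript length, were ordered differently in the knockdown than in the other groups. In wild type, averaged over the 2 tables that hold the group, Dlx1 was highest at 13.6 FPKM, followed by Maf at 8.67 to 9.33, Lhx6 at 5.69, Dlx6 at 5.18, Dlx2 at 4.02, Dlx5 at 3.87, Sp9 at 3.54, Sox6 at 3.34 and Prox1 at 1.92 FPKM. The same group differed between its 2 tables by 0.383% (Dlx5) to 10.1% (Dlx2); the tables hold different assemblies and were set to scale separately. Dlx2 and Dlx5 overlap within that range in wild type. Such gaps set the limit for ordering neighbours, as no spread between animals is known. In the knockdown Dlx1 was again highest at 21.02 FPKM and Prox1 lowest at 1.88 FPKM. Dlx2 at 5.78, Dlx5 at 5.78 and Sp9 at 5.09 FPKM stood above Lhx6 at 4.67 FPKM there, while in wild type and the rescue all 3 stood below Lhx6. For Dlx6 the gap between tables reached 18.6% in the knockdown, which exceeds the change its fold stands for. For Dlx1as it reached 28.1% in the knockdown, where the table of rescue against knockdown merged it with Metap1d.

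Other transcription factors of the interneuron lineage were described from a list. It held 20 genes, among them Sp8, Satb1, Npas1, Nr2f2 and the early genes Gsx2 and Nkx2-1. Of its 15 models tested in knockdown against wild type, 2 rose, 0 fell and 13 were not called, with a median log2 fold of 0.10. Sp8, the paralog of Sp9 in caudal eminence and olfactory bulb interneurons, rose from 2.86 to 5.66 FPKM (q = 0.00456 in the authors' deposited table). Tshz1, a zinc finger factor needed by olfactory bulb interneurons, rose from 8.45 to 13.6 FPKM (q = 0.00456 in the authors' deposited table). Sp8 was also the 1 model of 15 that fell in rescue against knockdown (6.03 to 4.25 FPKM, with q = 0.0118 in the authors' deposited table). It was the 1 of 15 higher in the rescue than in wild type too (2.86 and 3.97 FPKM, with q = 0.0404 in the authors' deposited table). Npas1, a PAS-domain factor of interneuron progenitors, had a log2 fold of -0.27 in the knockdown (p = 0.0267 and q = 0.453 in the authors' deposited table). The other listed Dlx genes, Dlx3 and Dlx4, lay at 0.044 FPKM or less in all groups and were not tested.

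Genes of GABA synthesis, which DLX proteins are known to act on, were counted next. Of 5 genes of GABA synthesis and transport, Gad1 and Gad2, the enzymes that make GABA, rose in the knockdown, by 0.33 (119.9 to 150.7 FPKM) and 0.25 (38.6 to 45.9 FPKM) on the log2 scale, 3 were not called, and the median was 0.12. In rescue against knockdown Cuffdiff called 0 of the 5, with 1 lower at an unadjusted p under 0.05 and a median of -0.11. In rescue against wild type it called 0, with 0 at an unadjusted p under 0.05 and a median of 0.02. Slc32a1, the transporter that loads GABA into vesicles, had a fold of 0.07 in the knockdown and was not called.

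Among 12 models of medial eminence markers other than Lhx6 and Sox6, 3 rose in the knockdown (Npy, Sst and Crhbp), 0 fell and 9 were not called, with a median of -0.03. Pvalb, the calcium-binding protein of fast-spiking cells, had a fold of -0.05. In rescue against knockdown 1 of 11 rose (Nos1, the neuronal nitric oxide synthase) and 0 fell, at a median of -0.04. In rescue against wild type 2 of 11 were higher (Nos1 and Npy) and 0 lower, at a median of 0.03. Among 11 models of caudal eminence markers other than Prox1, 2 rose in the knockdown (Calb2 and Reln), 0 fell and 9 were not called, with a median of 0.06. Vip, the peptide of a main caudal eminence subtype, had a fold of -0.03. Calb2 was the 1 of 11 that fell in rescue against knockdown, at a median of -0.05. Calb2 and Reln were the 2 of 11 higher in rescue than in wild type, at a median of 0.01. The log2 folds of Calb2 were 1.35 in the knockdown, -0.67 in rescue against knockdown and 0.64 in rescue against wild type. Those of Reln were 0.57, -0.18 and 0.39 in that order, beside olfactory bulb list medians of 1.47, -0.77 and 0.98. The part of bulb tissue in the folds of these 2 genes was not tested.

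**Figure D4:**
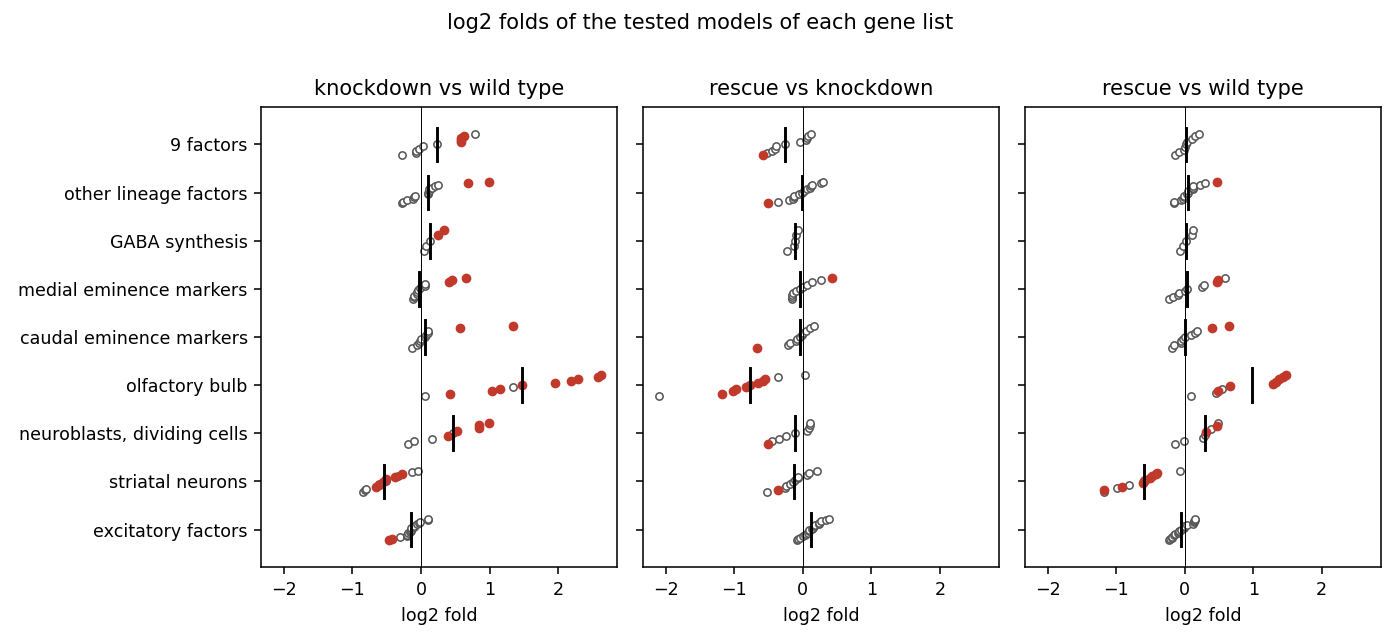
log2 folds (x axis) of every tested model of the 9 factors and of 8 gene lists (y axis) in the 3 comparisons; filled red points were called, open points were not, and vertical bars are medians. In the knockdown panel the olfactory bulb list lies to the right of 0 and the striatal list to the left, and the models of the 9 factors run from Lhx6 at -0.28 to the uncalled opposite-strand model at Dlx2 at 0.79, with Dlx1 highest on the annotated strand at 0.62.

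Most olfactory bulb markers and some neuroblast markers rose in the comparison in which Dlx1, Dlx2, Dlx5 and Sp9 rose. The olfactory bulb list held 11 genes and was chosen with earlier results of these data known. Of its 11 models tested, 9 rose in the knockdown, 0 fell and 2 were not called, with a median log2 fold of 1.47. Scgn, a calcium-binding protein of bulb interneurons, went from 1.81 to 7.03 FPKM and Eomes, a factor of bulb projection neurons, from 1.17 to 5.35 FPKM. The summed level of the list was 60.5 FPKM in wild type and 135.8 FPKM in the knockdown. In the table of rescue against knockdown it was 134.5 and 85.8 FPKM, with 0 of 11 models higher, 8 lower and a median of -0.77. In rescue against wild type it was 43.2 and 69.4 FPKM, with 7 of 10 higher, 0 lower and a median of 0.98, in a table where Nmb was not merged with Sec11a. No listed model was at 0 in any group, and Uncx was nearest to it, at 0.0503 FPKM or less. The part of bulb tissue in the rise of these genes was not tested.

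Of 9 models of neuroblast and dividing cell genes, 5 rose in the knockdown (Cd24a, Sp8, Prokr2, Igfbpl1 and Dcx), 0 fell and 4 were not called, at a median of 0.47 and summed levels of 34.0 and 40.9 FPKM. Dcx, the microtubule protein of migrating neurons, went from 7.43 to 9.76 FPKM in 1 of its models (q = 0.0142 in the authors' deposited table). The division genes Mki67 and Top2a had folds of 0.10 and -0.10; Mki67 was not tested and Top2a was not called. Ccnd2, a cyclin of dividing progenitors, had a log2 fold of -0.19 (p = 0.0223 and q = 0.410 in the authors' deposited table), and Sox11, a factor of immature neurons, one of 0.17; neither was called. In rescue against knockdown 1 of 9 fell (Sp8) and 0 rose, at a median of -0.11 and summed levels of 41.9 and 38.7 FPKM. In rescue against wild type 2 of 8 were higher (Sp8 and Dcx) and 0 lower, at a median of 0.30 and summed levels of 33.5 and 37.2 FPKM. The part of these cells in the Dlx and Sp9 folds was not tested.

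Striatal medium spiny neurons also descend from Dlx-expressing progenitors. In knockdown against wild type their markers lay in the direction opposite to Dlx1, Dlx2, Dlx5 and Sp9. In rescue against knockdown their median had the same sign as that of the member models. Of 14 models tested in the knockdown, 6 fell, 0 rose and 8 were not called, at a median of -0.53 and summed levels of 205.4 and 171.9 FPKM. In rescue against knockdown 1 of 12 fell (Penk) and 0 rose, at a median of -0.13. In rescue against wild type 9 of 13 were lower and 0 higher, at a median of -0.59 and summed levels of 209.6 and 155.9 FPKM. Drd2, the dopamine receptor of the indirect pathway, lay at 2.70 FPKM in wild type and 1.71 FPKM in the knockdown (q = 0.00833 in the authors' deposited table).

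The other cell types known to express Sox6, Maf or Prox1 gave 0 calls by Cuffdiff in any comparison. Among all tested models 2.52%, 0.689% and 0.841% were called in knockdown against wild type, rescue against knockdown and rescue against wild type. In lists this small, 0 calls therefore do not show that these cells were unchanged. At an unadjusted p under 0.05 the lists also gave 0, except for 1 higher and 1 lower dentate gene in rescue against knockdown. Of 9 oligodendrocyte precursor models, which bear on Sox6, 0 were called. Their medians were 0.09, -0.08 and 0.00 for the knockdown against wild type, the rescue against the knockdown and the rescue against wild type, respectively. All 9 folds were positive in the knockdown. In rescue against knockdown 8 were negative and 1 positive, and in rescue against wild type 5 were positive and 4 negative. Of 8 microglia and macrophage genes, which bear on Maf, 0 were called, at medians of 0.04, -0.02 and 0.02 in that order. Of 5 tested dentate granule neuron genes, which bear on Prox1, 0 were called, at medians of -0.10, -0.04 and -0.07.

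The pattern of the Dlx genes over the 3 comparisons was also set against that of all other genes. The mean of Dlx1, Dlx2, Dlx5 and Dlx6 was 0.51 in the knockdown relative to wild type, -0.43 in the rescue relative to the knockdown and 0.06 in the rescue relative to wild type. Among 11281 single-symbol genes tested in all tables and reaching a mean FPKM of 1, the nearest by Euclidean distance over these 3 log2 folds was Pglyrp1, a peptidoglycan recognition protein gene, at a distance of 0.0244. A330050F15Rik, Tmem163, Plce1 and Slc29a4 followed at 0.0552, 0.0702, 0.0884 and 0.0922. The Dlx genes themselves lay at 0.0989 (Dlx5), 0.184 (Dlx2), 0.191 (Dlx1) and 0.3499 (Dlx6) from their mean. The 3 folds come from 3 groups, so the likeness rests on few values and describes these tables only. Of the 5 genes, Plce1 (a phospholipase C) and Slc29a4 (a monoamine transporter) were called higher in the knockdown, and Plce1 was also called lower in rescue against knockdown.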

How the data were processed

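Group values of frontal cortex RNA were analysed for 12 mice in 3 groups of 4. The authors made and deposited, with Cuffdiff and in 3 tables, each gene model's FPKM per group, p-value, q-value and test statistic (a score). Programs listed in the submitters' processing notes are Cuffdiff 2.2.1.3, Cufflinks 2.2.1.0, TopHat2 2.1.0, TopHat and FastQC 0.65, and the builds GRCm38 and mm10. Depth is unknown, since no counts are used here. The series' design text gives 4 male mice per group. The tables name these groups NR1 and NR1Cre; NR1 is an older name of GluN1.

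Log2 folds were recomputed from the FPKM (Python 3.11.15, pandas 2.3.3, numpy 2.4.6, scipy 1.17.1), since 498 fold cells of 1 table could not be read. The q-values differed from recomputed Benjamini-Hochberg values by at most 5.14e-07. No test over animals could be refitted. Fold, spread and call steps were run on simulated data as a check of the code only. There p was made from the fold and a set spread, so the spread was recovered by construction. Such a run cannot check the deposited p-values or test statistics. Figures used matplotlib 3.10.9.

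Every member was named in every table. Of 13 context lists, up to 4 called genes by smallest q were eligible per comparison, plus the 5 genes nearest to the Dlx mean. The cortical markers, Dcx, Drd2, Vip, Pvalb, Slc32a1, Npas1, Dlx3, Dlx4, Mki67, Top2a, Ccnd2, Sox11 and Uncx were chosen after their values were seen. Members and lists were chosen with earlier results of these data known. Context lists leave the members out and share a few genes, such as Sp8 and Satb1. Settings varied were the q threshold, pseudocount, centring, FPKM filter and treatment of several models per gene. Locus starts were converted to 1-based positions. Protein sequences were not used here, and Dlx1's upstream stretch was not printed because it lies in an annotated exon.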

Additional observations from a re-analysis of the deposited data

How the results depend on the processing

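For knockdown against wild type the count of called members ran from 3 (q under 0.05) to 5 (unadjusted p under 0.05) around 4, and for rescue against wild type the count was 0 under every setting run. For rescue against knockdown the count of 1 became 4 at an unadjusted p under 0.05. With p from the deposited test statistic, chosen after seeing the data, the counts of 4 and 1 both became 0. The median log2 fold of the members ranged from 0.13 to 0.24 for knockdown against wild type, from -0.26 to -0.15 for rescue against knockdown and from 0.01 to 0.03 for rescue against wild type. The value of 0.13 came from models reaching a mean FPKM of 1, and -0.15 from these and from a pseudocount of 1. Single folds moved by at most 0.01 with centring and 0.17 with a pseudocount of 0.1. With a pseudocount of 1 the largest shift was 0.58, in the opposite-strand model of Dlx2, whose level is low. Signs changed for Maf (knockdown, models summed) and Sox6 (rescue against wild type, centred), both near 0 and not called. Counting genes in place of models, leaving out merged models, or leaving out opposite-strand models (the last chosen after seeing the data) changed no count. No paired analysis was possible because the tables hold 1 value per group, and for the same reason no animal could be left out.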

Other observations

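Transcription factors of excitatory cortical neurons were measured beside those of interneurons. Of 17 tested models of 15 such genes, 2 fell in the knockdown, 0 rose and 15 were not called, with 15 folds negative and a median log2 fold of -0.15. Fezf2, a factor of deep-layer projection neurons, went from 12.6 to 9.40 FPKM, and Bhlhe22, a factor of superficial-layer neurons, from 18.6 to 13.5 FPKM (each q = 0.00456 in the authors' deposited table). In rescue against knockdown 0 of 18 models were called by Cuffdiff, 3 were higher and 0 lower at an unadjusted p under 0.05, 14 folds were positive and the median was 0.11. In rescue against wild type 0 of 19 were called by Cuffdiff, 1 was higher and 3 lower at an unadjusted p under 0.05, 13 folds were negative and the median was -0.06.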
